A study of Mus musculus with 19 samples.

Results

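Sox1, Sox2, Sox3 and Sox21 are the mouse SOXB genes examined here, 4 of the 22958 genes in the expression table, chosen by symbol because together they make up the SOXB group apart from Sox14. RNA was sequenced from glial cells derived from embryonic stem cells (glia, 3 libraries) and from embryonic stem cell-derived glial progenitor cells (GPC, 4 libraries). The labels give neither the strain nor the genotype of the stem cells and carry 1 protocol for both groups. It names neural differentiation with 0.1 µM all-trans retinoic acid, magnetic sorting at day 8 for A2B5, a surface antigen of glial progenitors, and growth in EGF and FGF2 at 10 ng/ml, and no source used here gives what set the handling of the glia apart. Binding was profiled in GPC only, by chromatin immunoprecipitation with sequencing (ChIP-seq) against SOX3 (2 samples), SOX9 (3 samples) and NFIA (2 samples). Each factor had 1 peak list over its samples. The authors paired 4 of the 1367 SOX3 peaks and 5 of the 2943 SOX9 peaks with a SOXB gene.

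SOXB proteins bind DNA through an HMG box, a domain that bends the helix, and usually act beside a partner factor such as a POU protein. SOX1, SOX2 and SOX3 (subgroup SOXB1) are activators that keep neural progenitors undifferentiated, and SOX2 is also a core factor of pluripotent cells. SOX21 and SOX14 (subgroup SOXB2) act mostly as repressors, and SOX21 opposes SOXB1 activity in the neural tube of the chick.

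Reads counted in genes ranged from 6897294 to 22439837 per library. Whether the numbered replicates are separate cultures is not stated. The p-values therefore measure library-to-library spread, which may be technical. GPC replicate 3 was the deepest library and stood apart, at a chi-square of 25.4 to 29.3 per gene against each other GPC library, where those gave 2.01 to 3.47 among themselves. Glia replicate 2 was the shallowest. The astrocyte markers rose in glia for 8 of 10 genes tested and the oligodendrocyte lineage markers for 9 of 12, where 35.2% of all genes tested rose. Summed levels of the astrocyte list were 7623 to 9890 RPKM in glia against 794 to 1224 RPKM in GPC. Here RPKM is the authors' read density, corrected for gene length and sequencing depth, and a call means a Benjamini-Hochberg adjusted p below 0.05 in edgeR's quasi-likelihood test over 13588 genes.

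The promoters of the members are shown because no SOX3 or SOX9 peak paired with them lay within 1 kb of a start site. Promoter sequences were found for Sox1, Sox2 and Sox21 in RefSeq (GRCm38.p6). Each line gives the 250 bases before the start site, 5′ to 3′ in the direction of transcription, and capitals mark matches to the motifs described below.
Sox2, chr3:34649745-34649994, plus strand: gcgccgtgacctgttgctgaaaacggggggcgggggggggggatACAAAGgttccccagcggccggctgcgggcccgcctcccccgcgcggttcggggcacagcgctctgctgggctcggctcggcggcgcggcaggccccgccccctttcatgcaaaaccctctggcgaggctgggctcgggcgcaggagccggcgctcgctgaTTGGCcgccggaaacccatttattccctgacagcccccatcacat
Sox21, chr14:118237031-118237280, minus strand: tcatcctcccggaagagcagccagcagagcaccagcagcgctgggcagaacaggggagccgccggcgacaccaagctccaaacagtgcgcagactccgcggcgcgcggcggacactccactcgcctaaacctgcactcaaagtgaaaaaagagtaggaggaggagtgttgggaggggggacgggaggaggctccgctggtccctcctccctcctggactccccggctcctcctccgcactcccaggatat
Sox1, chr8:12395269-12395518, plus strand: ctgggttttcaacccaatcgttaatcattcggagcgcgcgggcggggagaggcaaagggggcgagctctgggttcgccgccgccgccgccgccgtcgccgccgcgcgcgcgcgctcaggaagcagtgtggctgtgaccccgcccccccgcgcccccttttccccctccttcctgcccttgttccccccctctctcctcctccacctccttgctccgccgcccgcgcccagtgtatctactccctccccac
The G and C content of these stretches was 72.0% for Sox2, 65.2% for Sox21 and 71.2% for Sox1, above the median of 52.4% over all promoters of the table. Motifs were searched on both strands in windows reaching 50 bases past the start site, in 32851 promoters. The SOX core ACAAT had no match in these 3 promoters and a match in 31.0% of all promoters. The core ACAAAG, shared by SOX and TCF proteins, matched at 206 bases before the Sox2 start and in 18.7% of all promoters. The NFI half-site TTGGC matched at 45 bases before the Sox2 start and in 46.7% of all promoters. The octamer ATGCAAAT, read by POU proteins, began at position 19 after the Sox1 start, outside the printed stretch, and occurred in 1.74% of all promoters. The 4 motifs did not overlap in these matches, and a match is a description of letters only.

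Sox3 was lower in glia, Sox2 slightly higher, and Sox1 and Sox21 did not pass the test. Sox3 had 41.7, 29.3 and 46.6 RPKM in glia replicates 1 to 3, against 72.3, 68.8, 121.9 and 66.6 RPKM in GPC replicates 1 to 4. The highest glia library lay below the lowest GPC library. These levels averaged 39.2 ± 8.91 RPKM in glia (SD, n = 3) and 82.4 ± 26.4 RPKM in GPC (SD, n = 4), a fold of 0.469 glia over GPC and a log2 change of -1.09 ± 0.26 (SE, edgeR adjusted p = 0.00638). The change was larger than that of 76.8% of the genes tested. Without GPC replicate 3 it was -0.82 (adjusted p = 6.61e-05), and the other GPC libraries averaged 69.2 ± 2.87 RPKM (SD, n = 3). RNA from whole cultures cannot tell fewer cells that express a gene from less RNA per cell.

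Sox2, the most abundant member, had 186.4, 162.8 and 192.5 RPKM in glia, against 141, 143.6, 163.3 and 152.5 RPKM in GPC. Glia replicate 2 lay just under GPC replicate 3, so the groups overlapped. Its log2 change was 0.24 ± 0.08 (SE, 95% interval 0.05 to 0.42, edgeR adjusted p = 0.0273), smaller than the change of most genes, at the 25.7th percentile of absolute size. The call ended without GPC replicate 1, 2 or 4 or without glia replicate 1 or 3, at adjusted p of 0.0603 to 0.109, and held without GPC replicate 3 (0.00283) or glia replicate 2 (0.00721). By mean RPKM Sox2 ranked 299th among 17196 genes with reads in glia and 473rd among 17231 genes in GPC. Sox2 lies inside the noncoding gene Sox2ot, and no source used here says whether counting used strand, so reads of the pair may mix. Sox2ot had 35.6, 36.2 and 33.8 RPKM in glia, against 27.2, 31.0, 36.3 and 28.4 RPKM in GPC, with a log2 difference of 0.16 ± 0.10 (SE, edgeR adjusted p = 0.17). Without GPC replicate 3 this was 0.26 and passed the test (adjusted p = 0.00386).

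Sox1, an activator of the early neural plate that is also kept in neural progenitors, was the lowest of the 4 genes. It had 9.18, 8.29 and 9.504 RPKM in glia, against 9.29, 9.58, 11.9 and 9.72 RPKM in GPC. Glia replicate 2 was the lowest library and GPC replicate 3 the highest, and the other libraries of both groups interleaved. The log2 difference was -0.20 ± 0.11 (SE, 95% interval -0.43 to 0.04, edgeR adjusted p = 0.118). Behind these values stood 231 to 668 reads in glia libraries and 483 to 1079 reads in GPC libraries.

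Sox21, the SOXB2 repressor, differed least. It had 46.7, 41.8 and 47.8 RPKM in glia, against 42.4, 43.9, 51.4 and 43.1 RPKM in GPC, and the groups overlapped. The log2 difference was -0.02 ± 0.09 (SE, 95% interval -0.22 to 0.18, edgeR adjusted p = 0.836), and only 2.43% of the genes tested had a smaller one. This interval leaves out changes the size of that of Sox3. Sox14, the remaining SOXB2 gene, had 0 reads in all 7 libraries.

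Set against the background, the SOXB genes were not a strongly changed group. Of the 13588 genes tested, 70.4% were called, 35.2% as higher and 35.2% as lower in glia, while 1 of the 4 SOXB genes was called higher and 1 lower. The RPKM values of the groups did not overlap for 69.1% of the genes tested, and for Sox3 alone among the SOXB genes. The median log2 change was -0.11 over the 4 members and 0.0013 over all genes tested.

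**Figure D1:**
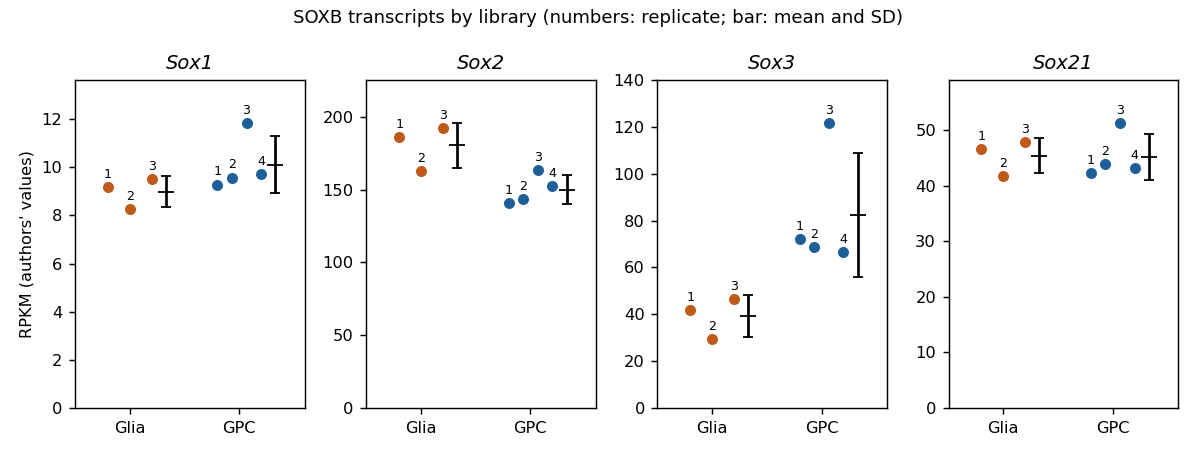
RPKM of the 4 SOXB genes in each library, glia at the left and GPC at the right of each panel, with replicate numbers above the points and the group mean and SD as a bar. Sox3 is the gene whose groups do not overlap, at 29.3 to 46.6 RPKM in glia and 66.6 to 121.9 RPKM in GPC, and GPC replicate 3 is the highest GPC point in every panel.

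The make-up of the SOXB transcripts differed more than their sum. Summed over the 4 genes, RPKM came to 284, 242 and 296 in glia, against 265, 266, 348 and 272 in GPC. These sums averaged 274 ± 28.3 RPKM in glia (SD, n = 3) and 288 ± 40.6 RPKM in GPC (SD, n = 4), and the groups overlapped. Sox2 made up 65.6%, 67.2% and 64.9% of the sum in glia, against 53.2%, 54.0%, 46.9% and 56.1% in GPC. Sox3 made up 14.7%, 12.1% and 15.7% of it in glia, against 27.3%, 25.9%, 34.98% and 24.5% in GPC. Every glia library thus lay outside the GPC range for both shares, which are parts of the same sum and not independent. The shares of Sox21 and Sox1 overlapped between the groups. For single genes, the RPKM of the groups did not overlap in 69.1% of the genes tested, and shares within other sets of genes were not computed. Sox21 held 16.6% ± 0.587 in glia (SD, n = 3) and 15.8% ± 0.739 in GPC (SD, n = 4), and Sox1 held 3.29% ± 0.116 in glia and 3.52% ± 0.0880 in GPC. In order of level the 4 genes ran Sox2, Sox21, Sox3, Sox1 in glia and Sox2, Sox3, Sox21, Sox1 in GPC. In glia the neighbours Sox21 and Sox3 lay closest, at ratios of Sox3 over Sox21 of 0.893, 0.701 and 0.975, against 1.71, 1.57, 2.37 and 1.54 in GPC.

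**Figure D2:**
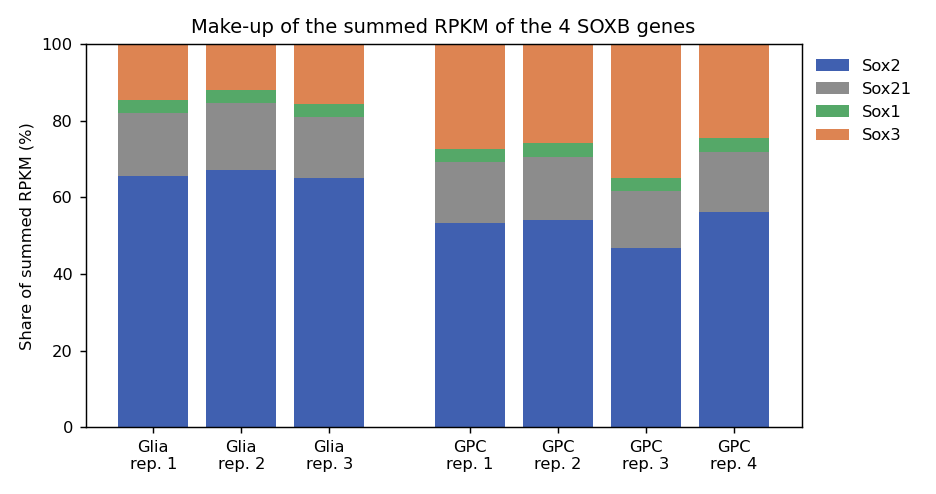
Share of each SOXB gene in the summed RPKM of the 4 genes, as percent, one bar per library, with glia at the left and GPC at the right. Sox3 takes 12.1% to 15.7% in glia and 24.5% to 34.98% in GPC, while Sox2 takes 64.9% to 67.2% in glia and 46.9% to 56.1% in GPC.

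Ratios between members were compared in all 6 pairs, on the log2(RPKM + 0.01) scale. The ratio of Sox2 to Sox3 was 4.47, 5.55 and 4.13 in glia, against 1.95, 2.09, 1.34 and 2.29 in GPC, which is higher by 1.32 on the log2 scale in glia. Sox2 over Sox21 was higher by 0.26 in glia and Sox1 over Sox3 by 0.89. In glia Sox3 over Sox21 fell by 1.06, Sox1 over Sox2 by 0.43 and Sox1 over Sox21 by 0.17. In all 6 pairs the 3 glia values lay outside the range of the 4 GPC values, and the exact two-sided permutation test gave p = 0.0286 for each, the smallest that 35 assignments of the libraries allow (0.0286 after Benjamini-Hochberg adjustment over the 6 pairs). The same test of no overlap over ratios to every other gene was met by 58.9% of genes for Sox1, 65.7% for Sox2, 77.1% for Sox3 and 59.8% for Sox21, so separation of a ratio was common in these libraries. All 6 ratios are built from the same 4 genes, so they are not independent results, and each pair with Sox3 carries the fall of Sox3. The ratio of Sox1 to Sox21 was the tightest, at 0.197, 0.198 and 0.199 in glia, against 0.219, 0.218, 0.231 and 0.225 in GPC.

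All 4 genes were highest in GPC replicate 3 among GPC and lowest in glia replicate 2 among glia, while in GPC replicate 4 Sox2 stood at 101.6% of its group mean and Sox3 at 80.8%. GPC replicate 3 stood at 117%, 109%, 148% and 114% of the GPC mean for Sox1, Sox2, Sox3 and Sox21, and glia replicate 2 at 92.2%, 90.2%, 74.8% and 92.1% of the glia mean. With the group means taken off, the correlation of log2 CPM (library-scaled counts) over the 7 libraries ran from 0.88 (Sox2 with Sox3) to 0.99 (Sox1 with Sox21). Over the same libraries with the group means left in, it ran from -0.33 (Sox2 with Sox3) to 0.92 (Sox1 with Sox3). These are descriptions over 7 libraries in which each pair of genes shares its depth and its cultures. Correlations over all other pairs of genes were not computed, so whether these values are particular to the SOXB genes was not tested. Against the average over GPC replicates 1, 2 and 4, GPC replicate 3 was higher for 47.3% of all genes tested and for all 4 SOXB genes. Among genes with reads GPC replicate 3 was higher for 13 of 21 neural progenitor genes, 12 of 16 proneural and neuronal genes, 7 of 13 other SOX genes and 6 of 11 POU factors. Of the marker lists it was higher for 8 of 10 astrocyte, 7 of 12 oligodendrocyte, 5 of 8 mesenchyme, 6 of 8 pluripotent cell, 5 of 6 endoderm, 3 of 6 neural crest, 2 of 6 endothelium and 1 of 5 microglia markers. Glia replicate 2 lay below the average of the other glia libraries for all 4 SOXB genes and for 47.8% of all genes tested. Among genes with reads it was lower for 12 of 16 proneural and neuronal genes and 8 of 11 POU factors. It was lower for 9 of 13 other SOX genes and 9 of 21 neural progenitor genes. Of the marker lists it was lower for 9 of 12 oligodendrocyte, 5 of 10 astrocyte and 4 of 6 endoderm markers. The counts were 4 of 6 for neural crest and 2 of 5 for microglia markers. For endothelium it was 1 of 6, for pluripotent cells 1 of 8 and for mesenchyme 0 of 8 markers. The summed astrocyte markers reached 1224 RPKM in GPC replicate 3, the top of the GPC range, and the part of these markers in the SOXB levels was not tested.

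**Figure D3:**
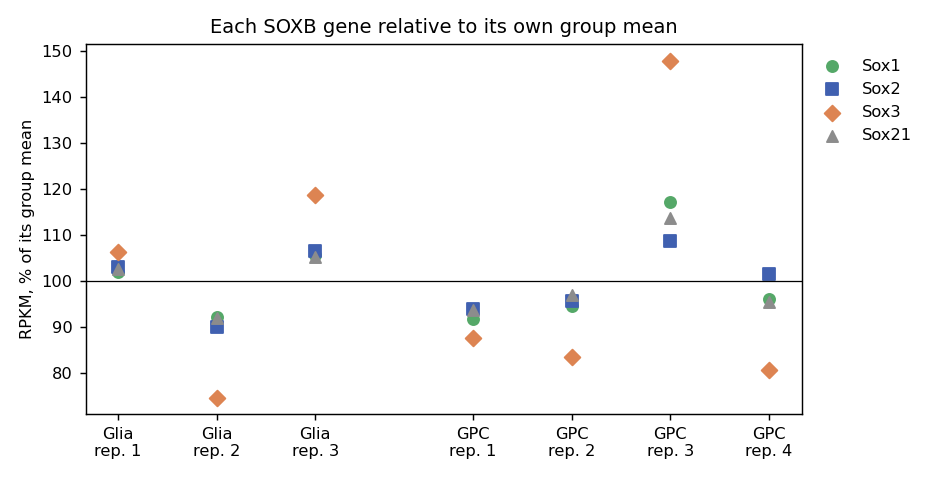
RPKM of each SOXB gene in each library as percent of its own group mean, with glia at the left and GPC at the right. All 4 genes are above 100% in GPC replicate 3 and below it in glia replicate 2, and Sox3 strays farthest, from 74.8% to 148%.

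The genes most like each member were taken by Pearson correlation of log2 CPM over the 7 libraries. For Sox3 they were Acat2, an acetyl-CoA acetyltransferase gene (r = 0.997), Ccdc86 (0.994) and Wtip (0.994). For Sox2 they included Ado (r = 0.987) and Rnf122 (0.987). For Sox21 they were Dll3, a Notch ligand gene (r = 0.982), the SOXE gene Sox8 (0.961) and Wbp4 (0.96). For Sox1 they were Pfkl, a glycolytic enzyme gene (r = 0.995), Tyro3, a receptor kinase gene (0.993), and Agap2 (0.993). With the group means taken off, the nearest genes included Cadm4, Nr1d1 and Tubb2a for Sox3, Zfp553 and Aldoart2 for Sox2, Lrfn3, Fntb and S100a16 for Sox21, and Higd1a, Arl8a and Tspan5 for Sox1, at r of 0.995 to 0.998.

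Among the other SOX genes, changes went both ways as well. Of 15 listed, 9 passed the filter on low counts, 2 rose, 3 fell and 4 were not called, with a median log2 change of -0.01. Sox6, named after its values were seen, was not called at 0.21 (edgeR adjusted p = 0.057). It was called as higher with at least 50 reads in 3 libraries (0.0317), with the replicate number as a block (0.0334) and without glia replicate 3 (0.00737). Over all genes tested, 70.4% were called. Sox10 and Sox9 of the glial SOXE group rose, by 0.90 ± 0.13 and 0.41 ± 0.08 on the log2 scale (SE). Among the fallers, Sox11, a SOXC gene of immature neurons, changed by -0.77 ± 0.13 and Sox13, a SOXD gene, by -0.73 ± 0.12 (edgeR adjusted p of 0.000142 to 0.00069 for these 4). With all 7 libraries the fall of Sox3 was the largest change among the 13 SOX genes tested, but the change of Sox10 was larger without GPC replicate 3 (0.90, against -0.82 for Sox3) and without glia replicate 2 (1.03, against -0.93 for Sox3).

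**Figure D4:**
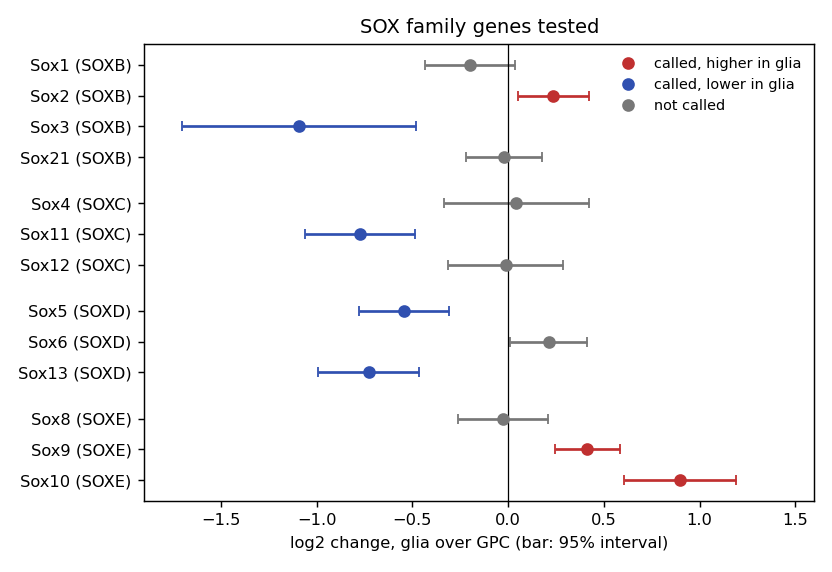
Log2 change, glia over GPC, of the 13 SOX genes that passed the filter on low counts, with 95% intervals and grouped by SOX subgroup. Sox3 lies farthest left at -1.09, the intervals of Sox1 and Sox21 include 0, and Sox10 lies farthest right at 0.90.

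Genes that mark the progenitor state, where SOXB1 factors act, were more often lower than higher in glia. Of 21 neural progenitor genes 20 were tested, 12 fell, 5 rose and 3 were not called, with a median log2 change of -0.47, where 35.2% of all genes tested fell and 35.2% rose. Nes, the intermediate filament of neural progenitors whose enhancer is a known SOX2 target, changed by -2.63 ± 0.08 (SE) and Fabp7, a fatty acid binding protein gene of radial glia, by -1.77 ± 0.07. Prom1, which encodes CD133, rose by 1.503 ± 0.07 and the FGF receptor gene Fgfr2 by 1.31 ± 0.08. The edgeR adjusted p was at most 1.83e-07 for these 4 genes.

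Proneural factors and early neuronal genes, whose activity SOXB1 factors hold back, were called at a share near that of all genes. Of 18 listed 11 were tested, 5 rose, 3 fell and 3 were not called, with a median log2 change of 0.096, where 70.4% of all genes tested were called. Elavl3, an RNA-binding protein gene of neurons, rose by 3.48 ± 0.15 (SE) and Dcx, which encodes a microtubule protein of young neurons, by 2.69 ± 0.09 (edgeR adjusted p at most 5.04e-08). Map2 changed by -0.27 ± 0.08, and its call ended without glia replicate 3 (edgeR adjusted p = 0.0613), where 1 gene of the list fell in place of 3. Insm1, named after its values were seen, rose by 0.62 (adjusted p = 0.0451), and that call ended without any 1 library other than GPC replicate 3 (0.0577 to 0.153) and with no filter on low counts (0.065).

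Among POU factors, partners of SOXB proteins, the calls that fell were of the class 3 genes Pou3f1 to Pou3f4. Of 13 listed 8 were tested, 4 fell, 3 rose and 1 was not called, with a median log2 change of -0.12. Over all genes tested, 35.2% fell and 35.2% rose. Pou3f1 had 1.02 ± 0.273 RPKM in glia (SD, n = 3) and 28.3 ± 2.59 RPKM in GPC (SD, n = 4), a log2 change of -4.74 ± 0.15 (SE). Pou3f4 had 13.96 ± 1.71 RPKM in glia and 29.8 ± 2.36 RPKM in GPC, a log2 change of -1.11 ± 0.11 (edgeR adjusted p at most 9.15e-06 for both). Pou3f3 and Pou3f2, named after their values were seen, changed by -1.04 ± 0.08 and -0.23 ± 0.09 (adjusted p of 1.66e-06 and 0.0363), and the call of Pou3f2 ended without GPC replicate 1 or 4 or glia replicate 2 or 3 (0.065 to 0.0956), under DESeq2 (0.0627), with at least 50 reads in 3 libraries (0.0661) and with the replicate number as a block (0.0586). Pou2f2 rose by 0.93 ± 0.28, a call that ended without glia replicate 3 (adjusted p = 0.0533), and Pou6f1 by 0.21 ± 0.06, which ended without glia replicate 1 (0.066) and with the replicate number as a block (0.0555). Pou5f1, the partner of SOX2 in pluripotent cells, had 0 reads in all 7 libraries.

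Markers of other cells that the cultures could hold were measured alongside. The 12 pluripotent cell markers summed to 4.05 to 7.27 RPKM in glia and 3.45 to 4.49 RPKM in GPC, with Pou5f1, Zfp42, Dppa5a and Dppa3 at 0 reads in every library. Klf4 held the largest part of this sum in glia, at 2.61 to 4.02 RPKM. Endoderm and epithelium markers summed to 3.45 to 3.95 RPKM in glia and 2.30 to 3.49 RPKM in GPC, with Sox17 at 0. Neural crest and Schwann cell markers summed to 5.71 to 5.9975 RPKM in glia and 5.52 to 9.84 RPKM in GPC. Endothelium markers reached at most 4.58 RPKM and microglia markers, with Cx3cr1 at 0, at most 8.83 RPKM in any library. Most of the microglia sum was Tmem119 alone, at 7.57 to 8.80 RPKM in glia. All 8 mesenchyme markers rose, where 35.2% of all genes tested did, with sums of 655 to 797 RPKM in glia and 149 to 162 RPKM in GPC. Oligodendrocyte lineage markers summed to 2374 to 3303 RPKM in glia and 1685 to 1842 RPKM in GPC. The part of these cells in the SOXB levels was not tested.

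In GPC, SOX3 and SOX9 peaks were paired with Sox2 and Sox21, and none with Sox1 or with Sox3 itself. Sox3 lies on chromosome X, where the lists held 3 of 1367 SOX3 peaks and 68 of 2943 SOX9 peaks, against 60 SOX3 peaks and 186 SOX9 peaks on chromosome 8, which carries Sox1. Sox2 had 3 SOX3 peaks and 4 SOX9 peaks, and Sox21 had 1 of each. Among genes with any peak, 4.12% (44 of 1069) had 3 or more SOX3 peaks and 2.42% (53 of 2187) had 4 or more SOX9 peaks. Positions are in mm9, and the authors' distances to the Sox2 and Sox21 start sites placed each site to within 1 base over the peaks of both lists.

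The single SOX3 peak and the single SOX9 peak of Sox21 shared a site. The SOX3 peak at chr14:118629351-118630154 and the SOX9 peak at chr14:118629474-118630074 overlapped, centred 5558 and 5537 bases downstream of the start site. At 804 bases the SOX3 peak was the 8th widest of 1367, where the median width was 167 bases. The SOX9 peaks were all listed at 601 bases, so their width carries no rank.

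Peaks paired with Sox2 lay from 3955 bases to 502.5 kb from its start site. The SOX3 peak at chr3:34310523-34310678 overlapped the SOX9 peak at chr3:34310295-34310895, about 238.3 kb upstream of the start site. The other SOX3 peaks lay at chr3:34457954-34458337, 90.8 kb upstream and 384 bases wide, and at chr3:34552792-34552973, 3955 bases downstream, with no SOX9 peak nearer than 114873 bases to either. The other SOX9 peaks lay at chr3:34340160-34340760 and chr3:34342480-34343080, 208.5 and 206.1 kb upstream, and at chr3:35051078-35051678, 502.5 kb downstream. Thus 2 of 4 SOX3 peaks of SOXB genes overlapped a SOX9 peak, where 21.9% (299 of 1367) of the SOX3 list did, and 2 of 5 SOX9 peaks overlapped a SOX3 peak, where 10.8% (318 of 2943) of the SOX9 list did. Numbers this small carry no test.

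None of the 9 peaks overlapped an NFIA peak, where 7.39% of all SOX3 peaks and 28.4% of all SOX9 peaks did. The nearest NFIA peak, chr3:34344282-34344582, was 1201 bases from the SOX9 peak 206.1 kb upstream of Sox2. It had a score of 17 in a list whose scores run from 14 to 1677 with a median of 16. None of the 9 peaks lay within 1 kb of a start site, where 2.41% of SOX3 and 8.12% of SOX9 peaks did. Within 1 Mb of the Sox2 start there were 5 SOX3, 7 SOX9 and 14 NFIA peaks, and within 1 Mb of the Sox21 start 3 SOX3, 8 SOX9 and 10 NFIA peaks, counted whatever gene they were paired with. With 1 list per factor the peaks have no replicate check, and since glia were not profiled, no peak can be set beside the RNA changes in glia.

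**Figure D5:**
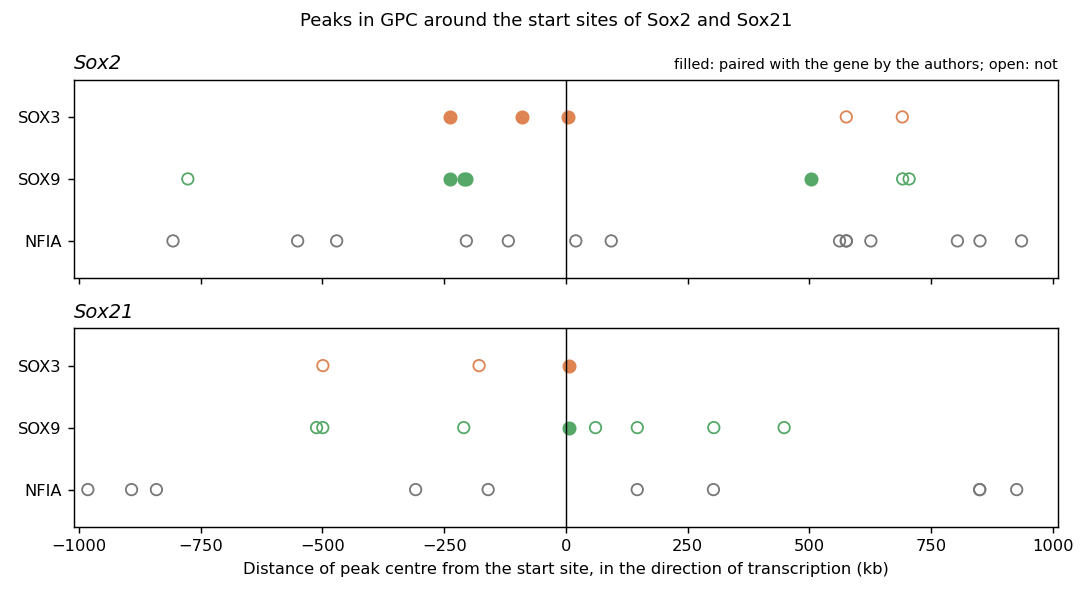
Centres of SOX3, SOX9 and NFIA peaks in GPC by distance in kb from the start sites of Sox2 and Sox21, positive in the direction of transcription, with filled points for peaks the authors paired with the gene. SOX3 and SOX9 points coincide about 238.3 kb upstream of Sox2 and about 5.56 kb downstream of Sox21.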

How the data were processed

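The authors deposited raw read counts per gene, and RPKM values were computed by the authors per gene length and library reads, per the file headers. The genome build mm9 and the peak callers MACS and MACS2 come from the submitters' processing notes. No source used here gives the aligner, counting tool or strand setting. Each peak of the NFIA list carries a score as deposited by the authors, whose meaning is not stated. RPKM served for levels, shares and ratios.

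The counts went into edgeR 4.0.16 under R 4.3.3 (TMM, filterByExpr, robust quasi-likelihood fit of glia against GPC, Benjamini-Hochberg over 13588 genes, two-sided). The standard error is the log2 change over the square root of F. The procedure was tested on simulated counts with few changed genes and no outlying library, unlike these data, so its error rates here were not tested. DESeq2 1.42.0 size factors and tests, other filters, a replicate block and leaving out each library were alternatives. Peaks overlapped if they shared at least 1 base, and peak positions are 1-based. No replicate pair agreed within sampling noise (chi-square per gene 2.01 to 29.3).

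The members, lists and tests were chosen with earlier results of these data known. Named genes were the 4 members, Sox2ot, Sox14, the 3 genes most like each member, and, in each list, up to 2 rising and 2 falling genes of largest change with at least 1 RPKM in a group. Some genes this rule names are not reported here. Map2, Tfcp2l1 and Tfap2a were matched through older symbols. Input and H3K27Ac samples were not analysed here.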

Additional observations from a re-analysis of the deposited data

Results flagged for a closer look

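Among the 4 GPC libraries, replicate 3 lay apart for 3 of the 4 SOXB genes. For Sox3 it had 121.9 RPKM, and its gap to the next library took a fraction of 0.897 of the group's range, above Dixon's critical value for 4 samples. For Sox21 it had 51.4 RPKM, with a fraction of 0.834, and for Sox1 11.9 RPKM, with a fraction of 0.832. The fractions of Sox21 and Sox1 lay only just above that critical value. Chance alone marks about 1 in 20 groups, and these 3 values come from 1 library and are not independent. That library also stood apart across genes, at a chi-square of 25.4 to 29.3 per gene against each other GPC library. The other GPC libraries gave 2.01 to 3.47 among themselves. The share of all genes that Dixon's test would mark in it was not computed. Whether the marks are particular to the SOXB genes was therefore not tested. With glia in groups of 3, no glia library was examined this way.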

How the results depend on the processing

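The log2 change of Sox3 stayed negative and called in all 12 alternatives (-1.24 to -0.82, adjusted p 6.61e-05 to 0.0277), and that of Sox1 negative and not called (-0.24 to -0.097). Sox2 stayed positive, at 0.19 to 0.31 with 1 library left out, and its call ended in 5 of those 7 settings. Sox21, never called, turned to 0.015 with at least 50 reads in 3 libraries, and ran from -0.061 to 0.053 with 1 library left out. The numbers of genes called stayed within 4146 to 5199 rising and 4150 to 5114 falling, but the number of genes tested differed between settings. The 4146 came with at least 50 reads in 3 libraries, of 11914 genes tested, and the 5199 with no filter on low counts, of 17895 genes tested. In the 6 ratios of members, each kept its direction and its p of 0.0286 under other pseudocounts and on counts; with 1 library left out the exact test cannot pass, and the directions held. On counts without length scaling the share of Sox1 differed by -0.48 percentage points in place of -0.23. Within 100 kb of the start site there was 1 SOX9 peak in place of 5, and 1 SOX3 peak shared with SOX9 in place of 2. Of all SOX9 peaks, 67.9% (1997 of 2943) lay that near to the start site of their paired gene, and no SOX9 peak of Sox2 did. With the replicate number as a block the log2 change was -1.17 for Sox3, 0.24 for Sox2, -0.22 for Sox1 and -0.045 for Sox21, with 4518 genes rising and 4382 falling, and no call of a member changed; same-numbered libraries correlated at -0.020, 0.14 and 0.068, and not every library correlated best with its own number.

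Signs of uncalled genes also turned with 1 library left out, over ranges of -0.040 to 0.21 for Sox4, -0.083 to 0.11 for Sox12, -0.085 to 0.074 for Sox8, -0.010 to 0.073 for Vim, -0.053 to 0.40 for Hes5, -0.14 to 0.13 for Pou2f1 and -0.58 to 1.01 for Neurog2, whose highest value came without GPC replicate 3 (adjusted p = 0.0121). The highest value of Hes5 also came without GPC replicate 3, where Hes5 passed the test (0.40, edgeR adjusted p = 0.0295). With at least 50 reads in 3 libraries Sox12 turned to 0.025, Sox8 to 0.011 and Pou2f1 to 0.021. The causes were not tested. The shallowest library, with 6897294 reads in genes, limits the glia values, and 1 peak list per factor leaves binding without error.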

Other observations

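The regions around Sox1, Sox2 and Sox21 held further peaks, chosen after their values were seen. Beside Sox1, the SOX3 list had peaks at chr8:12126593-12126739 and chr8:12323268-12323535 in mm9, both paired by the authors with A230072I06Rik, the protein-coding neighbour of Sox1 on one side in RefSeq gene order. The first overlapped an NFIA peak of score 14. The neighbour on the other side, Spaca7, which had 0 reads in all libraries, was paired with a SOX9 peak at chr8:12486321-12486921. Sox1ot, a noncoding gene at the Sox1 locus listed under its older symbol Gm5607, averaged 0.638 ± 0.113 RPKM in glia (SD, n = 3) and 0.290 ± 0.0988 RPKM in GPC (SD, n = 4), a log2 change of 1.02 ± 0.28 (SE, edgeR adjusted p = 0.00723).

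Between Sox2 and its neighbour Atp11b, a SOX3 peak at chr3:35124355-35124730 overlapped 2 NFIA peaks, of scores 27 and 16, and another at chr3:35239487-35239624 lay 318 bases from a SOX9 peak. The authors paired both with Atp11b, a flippase gene, which averaged 18.9 ± 1.77 RPKM in glia (SD, n = 3) and 13.7 ± 0.826 RPKM in GPC (SD, n = 4), a log2 change of 0.43 ± 0.08 (SE, edgeR adjusted p = 0.000781). A SOX9 peak at chr14:118488489-118489089, 146.5 kb downstream of the Sox21 start site, overlapped an NFIA peak of score 117. The authors paired it with the pigment gene Dct. A nearer SOX9 peak, 60.7 kb downstream of the Sox21 start site and paired with Gpr180, overlapped no NFIA peak.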
